A study of Mus musculus with 4 samples.

Results

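Heat shock proteins, J proteins (DnaJ homologues) and the subunits of the cytosolic chaperonin CCT were followed in mucosal mast cells of the mouse, stimulated with interleukin 18 (IL-18) or left unstimulated. The members were taken by name: every non-control spot whose gene name begins with Hsp or Dnaj, and the genes Tcp1, Cct2, Cct3, Cct4, Cct5, Cct6a, Cct7 and Cct8. This gave 155 spots, 137 probes and 71 gene names, out of 43379 spots, 41174 probes and 27962 names on the array.

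The cells were differentiated in vitro, and the study set IL-18 stimulated cells against their own unstimulated controls in 4 biological replicates. The RNA was hybridised on 1 two-colour array per replicate, with the stimulated RNA in Cy5 and the control RNA in Cy3 each time. Since no array had the dyes exchanged, a difference between the dyes and an effect of IL-18 cannot be told apart for a single probe. The sources used here give neither strain, dose nor duration. In these bulk samples, fewer cells of a type and less RNA per cell cannot be told apart either.

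Chaperones bind proteins that are unfolded or only partly folded and release them in cycles driven by ATP. HSP70 proteins hold exposed stretches of a chain, J proteins deliver clients and trigger ATP hydrolysis, and HSP110 proteins exchange the nucleotide. HSP90 finishes the maturation of kinases and receptors, HSP60 with its lid HSP10 encloses proteins in mitochondria, and CCT encloses actin and tubulin in the cytosol. Mast cells fill granules with large amounts of secretory proteases, and Kit, the receptor on which they depend, is a known HSP90 client. Heat shock factor 1 (HSF1) induces many of these genes through heat shock elements, which are inverted repeats of the unit GAA.

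The promoters below are shown because they hold such repeats and belong to genes whose transcripts are described further on: a mitochondrial lid (Hspe1), the J protein Dnajb6, the J protein Dnaja4 and Hspa1a, the textbook heat-inducible HSP70. Each line gives the 150 bases before the annotated start from RefSeq promoter sequences of build GRCm38.p6, with the GAA and TTC units of each match in capitals.
Hspe1 (chr1:55087998-55088147, plus strand): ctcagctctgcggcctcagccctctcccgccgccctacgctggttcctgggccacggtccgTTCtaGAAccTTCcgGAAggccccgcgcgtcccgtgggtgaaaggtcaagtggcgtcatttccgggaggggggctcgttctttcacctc
Dnajb6 (chr5:29735829-29735978, plus strand): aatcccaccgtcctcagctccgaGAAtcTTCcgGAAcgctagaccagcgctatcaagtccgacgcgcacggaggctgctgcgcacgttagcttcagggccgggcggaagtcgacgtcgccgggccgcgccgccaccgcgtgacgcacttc
Dnaja4 (chr9:54699409-54699558, plus strand): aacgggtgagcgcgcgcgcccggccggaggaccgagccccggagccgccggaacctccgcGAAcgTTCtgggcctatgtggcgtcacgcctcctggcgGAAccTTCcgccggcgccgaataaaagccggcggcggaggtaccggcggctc
Hspa1a (chr17:34972157-34972306, minus strand): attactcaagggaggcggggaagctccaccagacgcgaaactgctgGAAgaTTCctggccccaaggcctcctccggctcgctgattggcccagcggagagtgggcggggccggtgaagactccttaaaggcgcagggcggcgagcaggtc

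A pair of inverted units was searched as GAANNTTC or TTCNNGAA, and a triplet as GAANNTTCNNGAA or TTCNNGAANNTTC, in the window from 250 bases before to 50 bases after each start. Each form reads the same kind of repeat on both strands, and a triplet contains overlapping pairs. A pair stood in 15.1% of all 32851 promoters and a triplet in 0.603%. By gene, 17 of the 58 member genes with a promoter entry had a pair (29.3%, against 17.0% of all 27025 genes). A triplet was found in 4 of the 58, Hspe1, Hspd1, Dnajb6 and Hsph1 (6.9%, against 0.662% of all genes). Hspe1 and Hspd1 lie head to head, and all 150 printed bases of Hspe1 also lie in a promoter window of Hspd1 on the minus strand, so these 2 genes share 1 set of repeats. In Hspe1 the first unit starts 89 bases before the start site, in Dnajb6 127 bases, and in Hspa1a 104 bases. Dnaja4 has 2 separate pairs, 90 and 52 bases before its start. A match is a description of the letters and not a test of binding.

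Values are log2 ratios of IL-18 stimulated over unstimulated cells, normalized within each array for the trend of the ratio with brightness (loess). A probe was tested when 1 channel stood well above background on 3 or more of the 4 arrays, and it was called when its adjusted p in limma was below 0.05. In total, 116 of the 137 member probes were tested, and they covered 63 of the 71 genes. Among 24104 tested probes of the array, 48.3% were called, 24.3% higher and 24% lower. Of the 116 member probes, 22 were called higher and 38 lower (51.7%), a split that became 91 higher and 6 lower when each array was only centred on its median (69.5% higher and 5.9% lower over all tested probes, 75.4% called). The share of members called thus lay close to that of the array, and the median log2 ratio was -0.04 over the members against 0.01 over all tested probes. With the brightest tested probe standing for a gene, 9 of 63 member genes were higher and 19 lower (14.3% and 30.2%), against 26.3% higher and 20.7% lower over 16521 genes (47% called). With the mean of a gene's tested probes, 13 member genes were higher and 21 lower, against 25.1% higher and 23.3% lower over all genes (48.4% called).

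The changes were small. All 60 called member probes had the same sign on all 4 arrays, yet only 8 of them reached 0.5 on the log2 scale, all lower, and 1 reached 1. Over the array, 7.16% of tested probes were called at 0.5 or more and 0.809% at 1 or more. The member probes were brighter than most, with a median log2 intensity of 10.40 against 8.62 over all tested probes, and 53 of the 116 lay in the brightest of 4 classes of equal size. With 4 arrays the smallest p of an exact sign-flip test is 0.125, so the adjusted p-values from limma, fitted over the whole array, are the only ones given.

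**Figure D1:**
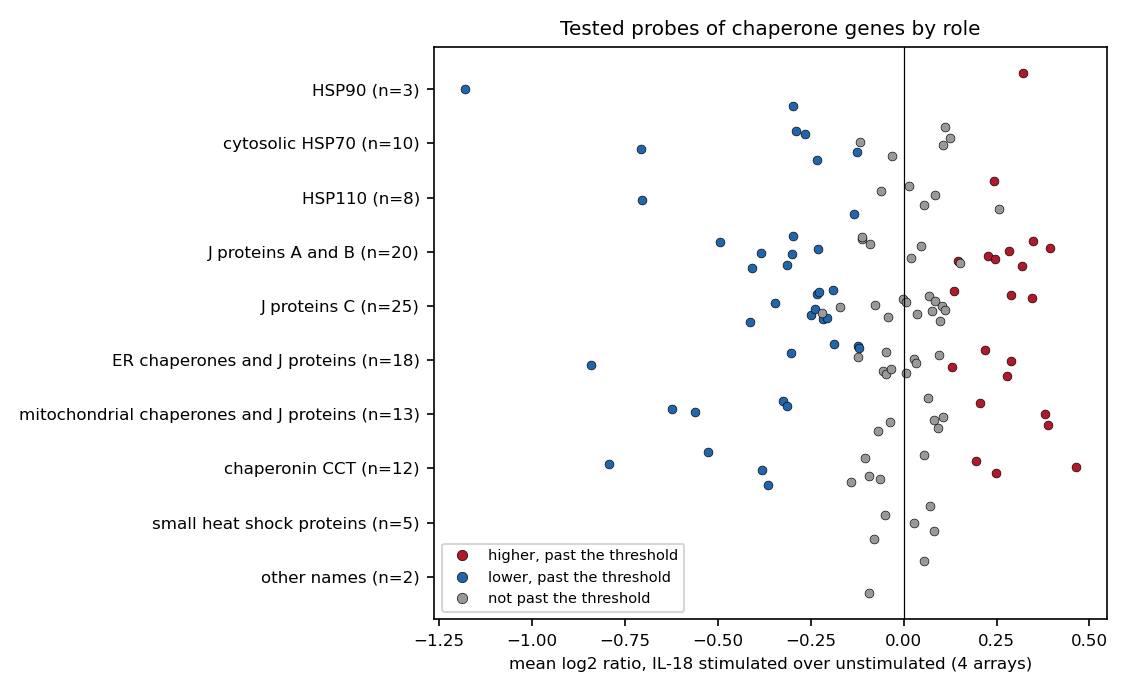
Mean log2 ratio of IL-18 stimulated over unstimulated cells for each of the 116 tested member probes, 1 row per role, with the number of tested probes in brackets. Red points were called higher, blue points lower and grey points were not called. The lowest point, at -1.18, is the dimmer probe of Hsp90ab1, and no role has points on only 1 side of 0.

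The direction of a ratio depended on how dye and brightness were handled. When median centring replaced loess, the median of all tested probes moved to 0.40 and that of the members to 0.61. In 4 equal classes of brightness, from dimmest to brightest, the medians of all tested probes with median centring were 0.02, 0.31, 0.58 and 0.82, against 0.03, 0.02, 0.00 and -0.01 with loess. Relative to the median of their own class, 55 member probes then lay above and 61 below. Higher calls made up 93.8% of member calls with median centring, against 36.7% with loess, and 92.2% against 50.2% over all tested probes. With the log ratio of the scanner software itself, 23 member probes were higher and 34 lower (26.4% and 21.1% of all tested probes, 47.5% in either direction). Directions below are those with loess, and 21 member probes, 18 higher and 3 lower, had the same call under median centring, the software's ratio, a smaller offset, scaling between arrays and a background fitted on all spots, which called 34.1% of all tested probes (18.1% higher, 16.1% lower) and gave 20 higher and 26 lower members. The 3 lower ones were the dimmer probe of Hsp90ab1, the dimmest tested probe of Hspa4 and the dimmer probe of Dnaja4. Median centring alone, which called 69.5% of all tested probes higher, kept 22 of the 22 higher and 6 of the 38 lower member calls. The split of 18 and 3 is thus no measure of how many members rose or fell. The matching share over all tested probes is not given here.

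**Figure D2:**
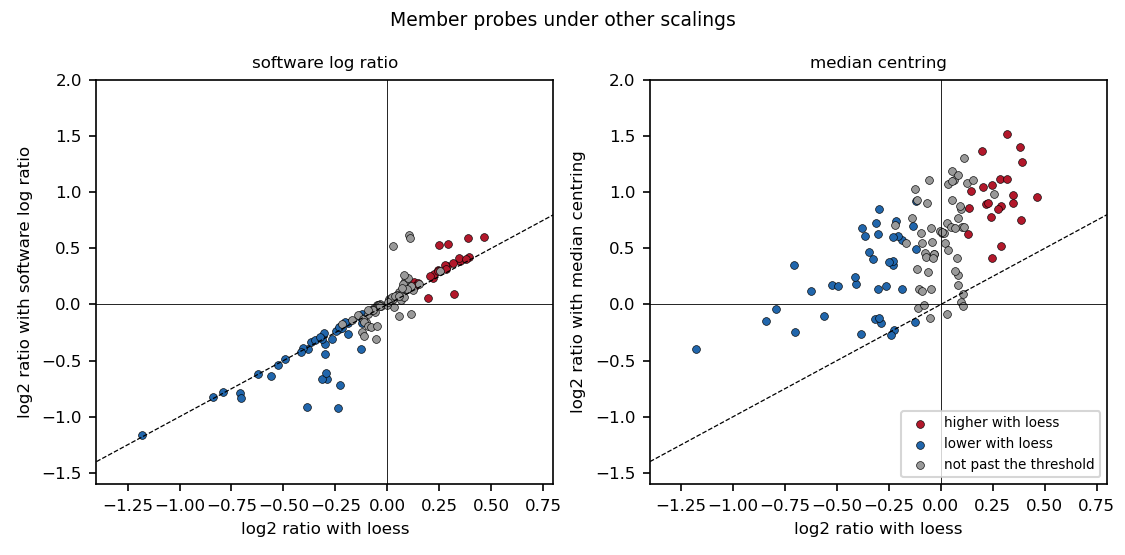
Log2 ratio of the 116 tested member probes with loess (x axis) against the software's log ratio (left) and median centring (right), with the line of equal values dashed. Red, blue and grey mark probes called higher, lower or not called with loess. Nearly all points lie above the line on the right, where the member median is 0.61, and close to the line on the left.

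The cytosolic HSP90 genes, which encode the chaperone of kinases and steroid receptors, had 3 tested probes, of which 1, that of Hsp90aa1, was higher and 2, both of Hsp90ab1, were lower. Over all tested probes 24.3% were higher and 24% lower. With median centring 2 of the 3 HSP90 probes were higher and 1 lower (69.5% and 5.9% over all tested probes). The difference between the genes was not tested. Hsp90aa1, the more inducible form in textbook accounts, had log2 intensities of 15.84, 15.95, 15.91 and 15.88 in IL-18 stimulated cells, against 15.56, 15.62, 15.67 and 15.45 in unstimulated cells. The groups did not overlap, and the ratio was 0.32 ± 0.08 (SD, n = 4; adjusted p = 0.0018 in limma), or 1.25-fold. With median centring this value was 1.52, and with the software's log ratio it was 0.09 and not called (adjusted p = 0.273).

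Hsp90ab1, the constitutive form, was represented by 2 tested probes and both were lower. The dimmer probe, A_52_P257204, read 11.45, 11.43, 11.40 and 11.44 in IL-18 stimulated cells, against 12.45, 12.52, 12.46 and 13.02 in unstimulated cells. Its groups lay far apart, and the ratio of -1.18 ± 0.27 (SD, n = 4; adjusted p = 2.45e-04), or 2.27-fold lower, was the largest change among the members. The level in stimulated cells was nearly the same on every array, while the unstimulated level of replicate 4 stood above the other 3. The brighter probe, A_51_P485043, read 15.08, 15.14, 15.15 and 15.11 in IL-18 stimulated cells, against 15.23, 15.31, 15.46 and 15.67 in unstimulated cells. It also fell, by 0.30 on the log2 scale (adjusted p = 0.0125), 1.23-fold lower, but with median centring it read 0.85, higher. Without replicate 3 this probe just missed the threshold (adjusted p = 0.0518).

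Among the cytosolic HSP70 proteins no probe of 10 was higher and 5 were lower (0% and 50%, against 24.3% and 24% over all tested probes). With median centring 6 were higher and 1 lower (69.5% and 5.9% over all tested probes). Hspa8, the constitutive HSP70 (HSC70), had 2 bright probes that differed. The brighter read 15.60, 15.68, 15.80 and 15.75 in IL-18 stimulated cells, against 15.47, 15.52, 15.57 and 15.82 in unstimulated cells. These groups overlapped, and the ratio of 0.11 ± 0.13 (SD, n = 4) was not called (adjusted p = 0.139). Without replicate 4, which alone was below 0, it was called higher (adjusted p = 0.0114). The dimmer Hspa8 probe, still among the brightest on the array, read 14.37, 14.26, 14.07 and 14.06 in IL-18 stimulated cells, against 14.77, 14.89, 14.78 and 15.14 in unstimulated cells. Here the groups did not overlap and the ratio was -0.71 ± 0.28 (SD, n = 4; adjusted p = 0.00153), or 1.63-fold lower, which became 0.35, higher, with median centring.

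Hspa1a has a coding sequence nearly identical to that of Hspa1b, so that its probes may take up both transcripts. It was dimmer than Hspa8, with a mean log2 intensity of 8.77 on its brightest probe, against a median of 8.62 over all tested probes. Its brightest probe read 8.19, 8.68, 8.68 and 9.52 in IL-18 stimulated cells, against 8.68, 8.70, 8.96 and 8.85 in unstimulated cells. The ratios of -0.49, -0.02, -0.28 and 0.67 on replicates 1 to 4 had no common sign, and their mean of -0.03 ± 0.50 (SD, n = 4) was not called. The second probe behaved alike, with -0.45, -0.21, -0.32 and 0.52, so that replicate 4 stood opposite to the others on both. Without replicate 4 the 2 probes were called lower (adjusted p = 0.0336 and 0.00235). The dimmest tested probe of Hspa1a fell by 0.29 on the log2 scale (adjusted p = 0.00677), at a mean log2 intensity of 6.88. It just missed the threshold with median centring (adjusted p = 0.0523) and with the background fitted on all spots (adjusted p = 0.0506). Hspa2, a form best known from the testis, fell on both probes, by 0.27 and 0.23, and both were higher with median centring.

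HSP110 proteins, which exchange the nucleotide of HSP70, gave 1 higher and 2 lower calls among 8 probes (12.5% and 25%, against 24.3% and 24% over all tested probes). With median centring 7 were higher and 1 lower (69.5% and 5.9% over all tested probes). Hsp110, now named Hsph1, did not pass the test at 0.05 ± 0.06 (SD, n = 4), with levels from 12.92 to 13.05 in IL-18 stimulated cells and from 12.79 to 13.01 in unstimulated cells. Hspa4 had 3 tested probes. The dimmest fell by 0.70 on the log2 scale (adjusted p = 3.34e-04), with ratios of -0.75, -0.59, -0.57 and -0.90. The brightest fell by 0.13 (adjusted p = 0.0448), was 0.70, higher, with median centring, and was not called without replicate 1, 2 or 3 (adjusted p from 0.0998 to 0.157) or with the software's ratio (adjusted p = 0.169). A further Hspa4 probe, designed on a cDNA clone, spread from -0.49 on replicate 1 to 0.90 on replicate 4 and was not called, but without replicate 1 it read 0.50, higher (adjusted p = 0.0234). Of Hspa4l, a relative of Hspa4, 1 of 4 probes was higher at 0.24 ± 0.13 (SD, n = 4), though not without replicate 2 (adjusted p = 0.0523).

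**Figure D3:**
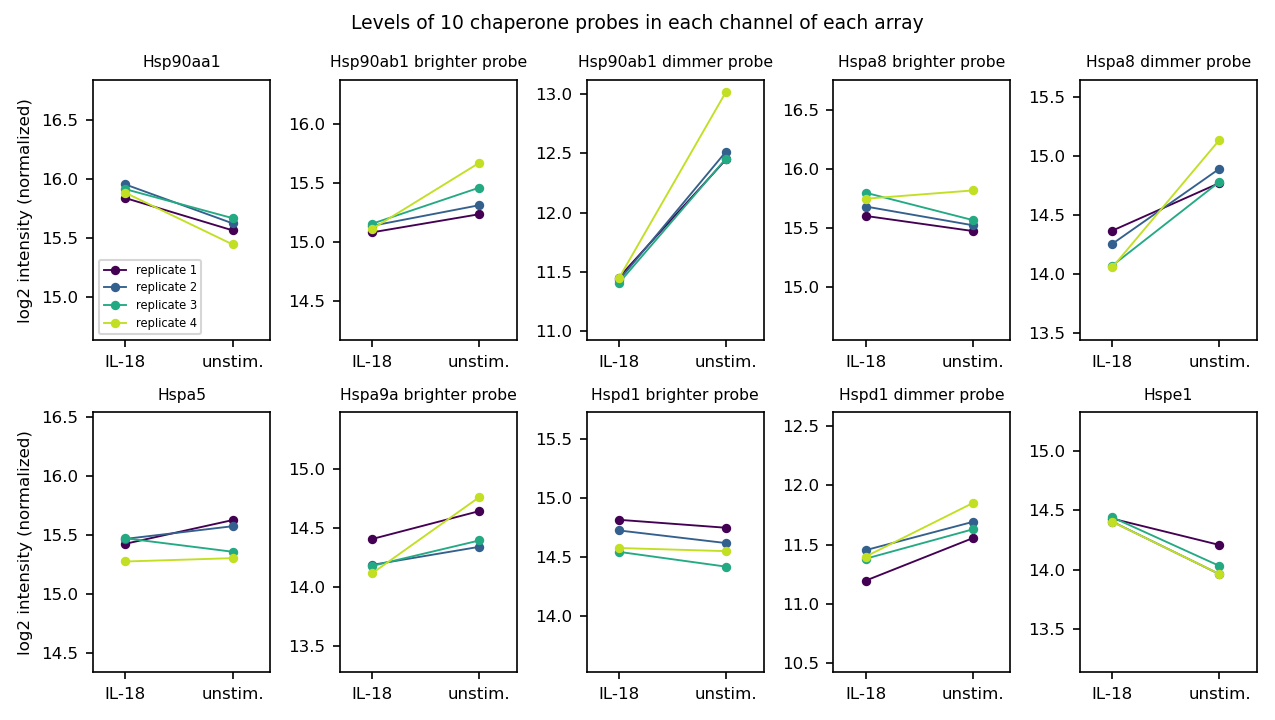
Normalized log2 intensity of 10 probes of abundant chaperone transcripts in the IL-18 stimulated (left) and unstimulated (right) channel, 1 line per replicate. Every panel spans the same range on the y axis. The lines of the dimmer probes of Hsp90ab1 and Hspa8 lie lower in stimulated cells on each replicate, those of Hsp90aa1 and Hspe1 higher, and those of Hspa5 cross.

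J proteins of classes A and B outside the organelles gave 7 higher and 7 lower calls among 20 probes (35% each, against 24.3% and 24% over all tested probes). With median centring 13 were higher and 1 lower (69.5% and 5.9% over all tested probes). Dnajb6, a J protein known to hold back aggregation of polyglutamine proteins, was the 1 gene of 36 with several tested probes whose probes were all higher (2.78%, against 7.51% of 5443 such genes on the array). Its brightest probe read 13.19, 13.25, 13.18 and 13.12 in IL-18 stimulated cells, against 12.95, 12.84, 12.80 and 12.58 in unstimulated cells. The groups did not overlap, with a ratio of 0.39 ± 0.12 (SD, n = 4; adjusted p = 0.00155), or 1.31-fold. The other 2 probes read 0.25 ± 0.09 and 0.32 ± 0.21 (SD, n = 4; adjusted p = 0.00583 and 0.0130). All 3 kept their call under every scaling named above. Median centring tests little here, since it kept all 22 higher member calls and 6 of the 38 lower ones.

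Dnaja1 and Dnaja2, the abundant class A partners of HSC70, pointed the same way. Dnaja1 rose on 2 of 3 probes, by 0.35 ± 0.11 and 0.15 ± 0.08 (SD, n = 4), the smaller of these not without replicate 1 or 2 (adjusted p = 0.119 and 0.126), and its brightest probe, at 0.15 ± 0.12, missed the threshold (adjusted p = 0.0537). Dnaja2 rose by 0.28 ± 0.11 (adjusted p = 0.00454). Dnaja4, a class A J protein known as heat-inducible, fell on both probes, by 0.38 and 0.23, with ratios on its dimmer probe of -0.32, -0.33, -0.37 and -0.52. Its brighter probe read 0.39, higher, with median centring and was not called without replicate 2 or 3 (adjusted p = 0.0615 and 0.0812). Dnajb1 (HSP40), the main inducible partner of HSP70, read 14.35 in IL-18 stimulated and 14.46 in unstimulated cells on its brighter probe, which was not called at -0.11 ± 0.08. Its dimmer probe fell by 0.49 on the log2 scale (adjusted p = 0.015), where replicates 1 to 4 read -0.15, -0.38, -0.43 and -1.01. It was no longer called without replicate 3 (adjusted p = 0.0501), and read 0.17 with median centring. Dnajb10, now Dnajb2, fell by 0.41 ± 0.16 (SD, n = 4; adjusted p = 0.00242), and read 0.18 with median centring.

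Class C J proteins, a mixed family with varied tasks, gave 3 higher and 9 lower calls among 25 probes (12% and 36%, against 24.3% and 24% over all tested probes). With median centring 22 were higher and 2 lower (69.5% and 5.9% over all tested probes). Dnajc7, a cochaperone that binds both HSP70 and HSP90, had ratios of -0.37, -0.32, -0.35 and -0.35. This was a fall of 0.35 ± 0.02 (SD, n = 4; adjusted p = 6.53e-04), though it read 0.47 with median centring. Dnajc2, a J protein of the ribosome (zuotin), fell by 0.41 ± 0.13 (SD, n = 4) on 1 of 2 probes, and its brighter probe at -0.17 ± 0.22 was not called. Dnajc8, which associates with the spliceosome, fell on both probes, by 0.23 and 0.22, with adjusted p from 0.0531 to 0.0790 where leaving out replicate 2 or 3 ended a call.

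In the endoplasmic reticulum, where secretory proteins fold, the HSP70 and HSP90 forms did not pass the test. Hspa5 (BiP), the HSP70 of this compartment, read 15.42, 15.47, 15.47 and 15.27 in IL-18 stimulated cells, against 15.62, 15.57, 15.36 and 15.30 in unstimulated cells. The groups overlapped, and the ratio was -0.06 ± 0.13 (SD, n = 4; adjusted p = 0.451). With the software's log ratio, however, Hspa5 read -0.30 and was called lower (adjusted p = 0.0129). Hsp90b1 (GRP94), the HSP90 of the compartment, was not called on either probe, at -0.12 ± 0.11 and 0.03 ± 0.12 (SD, n = 4). The brighter of them was called lower with the software's ratio, at -0.25 (adjusted p = 0.0323), and without replicate 4 (adjusted p = 0.0293). With median centring these 3 probes read 1.11, 1.03 and 1.07.

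Over the whole compartment, Hspa5, Hsp90b1 and the J proteins that assist Hspa5, 4 of 18 probes were higher and 5 lower (50%, against 48.3% over the array). With median centring 17 were higher and 0 lower (69.5% and 5.9% over all tested probes). Dnajc1, a J protein of the ER membrane, read 10.93, 10.50, 10.58 and 10.57 in IL-18 stimulated cells, against 11.75, 11.38, 11.27 and 11.53 in unstimulated cells on the probe of intermediate brightness among its 3. The groups did not overlap, and the fall of 0.84 ± 0.11 (SD, n = 4; adjusted p = 1.3e-04), or to a level 1.79-fold lower, was the second largest among the members. Its brightest probe fell by 0.30 ± 0.09 (adjusted p = 0.00231), and its dimmest was not called. With median centring they read -0.14, 0.63 and 0.45. Dnajb9 (ERdj4), a target of the unfolded protein response, rose by 0.29 ± 0.02 and 0.28 ± 0.12 (SD, n = 4) on 2 dimmer probes, while its brightest read -0.05 ± 0.08. Dnajc10, a disulfide reductase, rose on 2 of 4 probes, by 0.22 and 0.13, the smaller of these not without replicate 1, 2 or 3 (adjusted p from 0.0765 to 0.119). Dnajc3, an inhibitor of eIF2α kinases, fell on 2 of 4, by 0.19 and 0.12, and leaving out replicate 1 or 2 ended both calls (adjusted p from 0.0731 to 0.140).

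HSP60 and HSP10 form the chamber and the lid of the mitochondrial chaperonin. Hspe1 (HSP10), the lid, read 14.43, 14.40, 14.44 and 14.40 in IL-18 stimulated cells, against 14.21, 13.96, 14.03 and 13.96 in unstimulated cells. The groups did not overlap, and the rise of 0.38 ± 0.11 (SD, n = 4; adjusted p = 0.00132), or 1.30-fold, kept its call under every scaling named above. Of these, median centring kept every higher member call and so tests little for a rise. Hspd1 (HSP60), the chamber, which shares the printed promoter region with Hspe1, was not called on its brighter probe. That probe read 14.81, 14.72, 14.54 and 14.58 in IL-18 stimulated cells, against 14.75, 14.62, 14.42 and 14.55 in unstimulated cells, a ratio of 0.08 ± 0.04 (SD, n = 4; adjusted p = 0.133). Its dimmer probe read 11.20, 11.45, 11.38 and 11.40 in IL-18 stimulated cells, against 11.55, 11.69, 11.63 and 11.85 in unstimulated cells. Those groups did not overlap, and the ratio was -0.33 ± 0.10 (adjusted p = 0.0022), turning to 0.41 with median centring. The difference between Hspe1 and Hspd1 was not tested.

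Hspa9a, now Hspa9 (mortalin), the HSP70 of mitochondria, fell on both probes, by 0.62 ± 0.35 and 0.31 ± 0.22 (SD, n = 4; adjusted p = 0.00534 and 0.0179). On the probe with the larger change replicates 1 to 4 read -0.54, -0.40, -0.41 and -1.14, so that replicate 4 stood lowest, and with median centring the 2 probes read 0.12 and 0.73. Dnaja3, its J protein partner, fell by 0.56 ± 0.23 on the dimmer probe and was not called on the brighter at 0.09 ± 0.10. Dnajc19, of the protein import motor, rose by 0.39 ± 0.13 on 1 of 3 probes, the dimmest, and its brightest read 0.07 ± 0.07. Dnajc15, a relative of Dnajc19, rose by 0.20 ± 0.15 (adjusted p = 0.0296), but not without replicate 2 or 3 (adjusted p = 0.0822 and 0.0783). Of 13 mitochondrial probes 3 were higher and 4 lower (23.1% and 30.8%, against 24.3% and 24% over all tested probes). With median centring 10 were higher and 0 lower (69.5% and 5.9% over all tested probes).

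CCT is a double ring in which each of 8 different subunits holds a fixed place. All 8 genes were measured, by 12 probes, of which 3 were higher and 4 lower (25% and 33.3%, against 24.3% and 24% over all tested probes). With median centring 10 were higher and 0 lower (69.5% and 5.9% over all tested probes). Cct3 had the largest change: its brighter probe read -0.61, -0.63, -0.73 and -1.20, a fall of 0.79 ± 0.28 (SD, n = 4; adjusted p = 9.37e-04), or 1.73-fold lower. The dim second probe of Cct3, with a mean log2 intensity of 7.05, read 0.23, 0.09, 0.33 and 0.34 and was called higher at 0.25 ± 0.11 (adjusted p = 0.00801). It was not called with the background fitted on all spots (adjusted p = 0.0573).

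Cct6a fell by 0.53 ± 0.09 (SD, n = 4; adjusted p = 3.40e-04), with -0.43, -0.48, -0.58 and -0.62 on replicates 1 to 4. Cct7 read -0.26, -0.28, -0.24 and -0.74, and Cct4 read -0.24, -0.19, -0.25 and -0.78 on its brighter probe, with means of -0.38 ± 0.24 and -0.37 ± 0.28 (adjusted p = 0.0103 and 0.0191). On both, replicates 1 to 3 lay close together and replicate 4 far below, and without it both were still called (adjusted p = 0.00155 and 0.00293). With median centring Cct6a read 0.18, Cct7 0.68 and Cct4 0.61, all called higher, and Cct3 -0.04. With the software's ratio Cct4 missed the threshold (adjusted p = 0.0532). Cct5 rose by 0.20 ± 0.04 (adjusted p = 0.00655), but with the software's log ratio it read 0.06 (adjusted p = 0.378). Without replicate 2 it was not called either (adjusted p = 0.0512).

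Cct2, Cct8 and the brighter probe of Tcp1 were not called, at 0.06 ± 0.14, -0.06 ± 0.06 and -0.14 ± 0.14 (SD, n = 4). On Cct2, replicates 1 to 3 read 0.14, 0.11 and 0.13 against -0.16 on replicate 4, and without replicate 4 it was called higher (adjusted p = 0.0271). The dimmer probe of Tcp1 read 0.39, 0.48, 0.45 and 0.55, a rise of 0.46 ± 0.07 (SD, n = 4; adjusted p = 3.91e-04), or 1.38-fold, which was the largest rise among the members. By their brightest probes, 4 subunits were thus lower, 1 higher and 3 not called. That is 50% lower and 12.5% higher, against 20.7% and 26.3% over all 16521 genes by brightest probe. With median centring none (0) of the 12 CCT probes was lower. Differences between subunits were not tested.

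**Figure D4:**
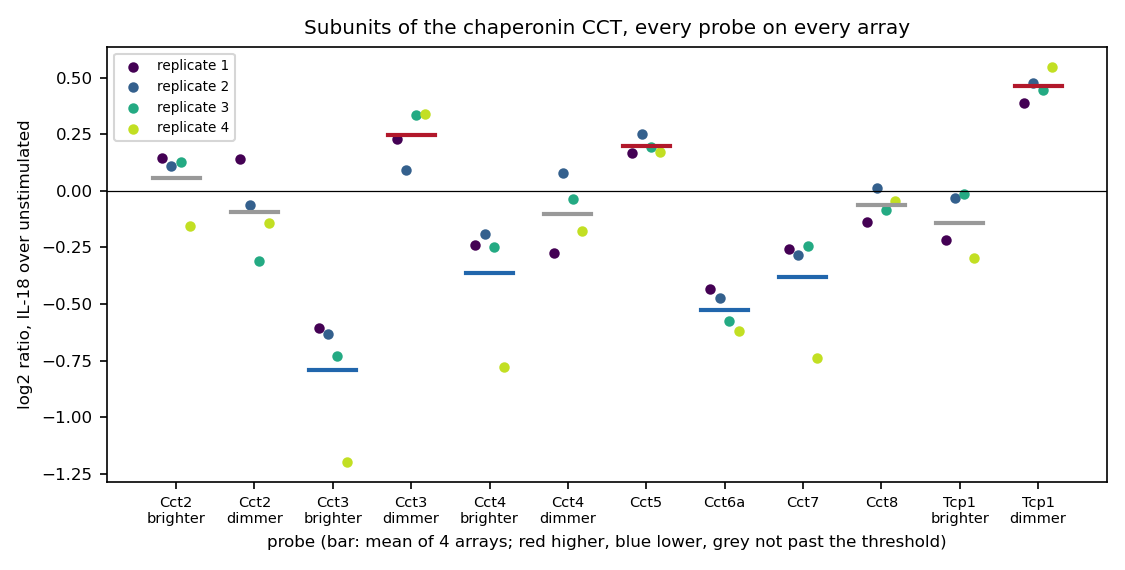
Log2 ratio of IL-18 stimulated over unstimulated cells on each of the 4 arrays for the 12 probes of CCT subunits, with the mean as a bar coloured by its call. Replicate 4 lies well below the others for Cct3, Cct4 and Cct7 on the brighter or only probe. The Tcp1 probes lie on opposite sides of 0, at -0.14 and 0.46.

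Small heat shock proteins, which hold unfolded proteins without ATP, were at the edge of detection. Of 10 probes 5 could be tested and none (0) was called, against 48.3% of all tested probes. Their ratios ran from -0.08 to 0.08, with mean log2 intensities near the 6.75 of their median. At an unadjusted p below 0.05 there were likewise 0. With the software's log ratio 1 of the 5 was called higher, Hspb2 at 0.26 (adjusted p = 0.0104), and 1 lower, Hspb1 at -0.20 (adjusted p = 0.0397). Hspb1 (HSP25) read 6.71 in IL-18 stimulated and 6.79 in unstimulated cells. Hspb2 read 6.85 in stimulated and 6.77 in unstimulated cells. Hspb3, Hspb6 and Hspb8 were not tested, since they were not well above background on enough arrays, and neither were Hspa12a, Dnajb3, Dnajb7, Dnajb13 and Dnajc5b. Both probes of Hspb7 and 1 probe each of Dnajc11 and Dnajc5g were tested through the stimulated channel alone, being not well above background in the unstimulated channel on any array, and none of these 4 was called. Only Dnajc5g of the 4 had a stimulated level above the detection floor of the other channel, at 6.444 against 6.437. That bound of 1.00-fold shows no rise.

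Hspbap1 and Hspc171 carry the letters of the rule but are no heat shock proteins: the first encodes a protein that binds a small heat shock protein, the second is now named Tmem208. Neither was called, at -0.09 ± 0.09 and 0.06 ± 0.05 (SD, n = 4), though without replicate 4 Hspbap1 was called lower (adjusted p = 0.0392).

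Probes of 1 gene often disagreed. Of 36 member genes with several tested probes, 1 had every probe higher (Dnajb6) and 5 had every probe lower (Hsp90ab1, Hspa2, Hspa9a, Dnaja4 and Dnajc8). In 3 genes, Cct3, Dnajb12 and Dnajc16, probes were called in opposite directions, in 21 only some were called, and in 6 none was. The share with every probe lower was 13.9%, against 11.3% over the array, that with some called in 1 direction 58.3% against 47.8%, and that with none called 16.7% against 22.7%. The median range between the probes of a gene was 0.28 on the log2 scale, against 0.22 over 5443 genes of the array with several tested probes, of which 10.6% had calls in both directions (8.33% of the member genes). Dnajb12, a J protein anchored in membranes, read 0.23 ± 0.12 on its brighter and -0.30 ± 0.22 on its dimmer probe, calls that were lost without replicate 3 (adjusted p = 0.0565) and without replicate 2 (adjusted p = 0.0567). Dnajc16 read 0.35 ± 0.12 on 1 probe, -0.23 ± 0.10 and -0.24 ± 0.09 on 2 dim ones, and 0.07 ± 0.04 on the brightest, which was not called (SD, n = 4). Which transcripts the probes of a gene measure was not tested.

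**Figure D5:**
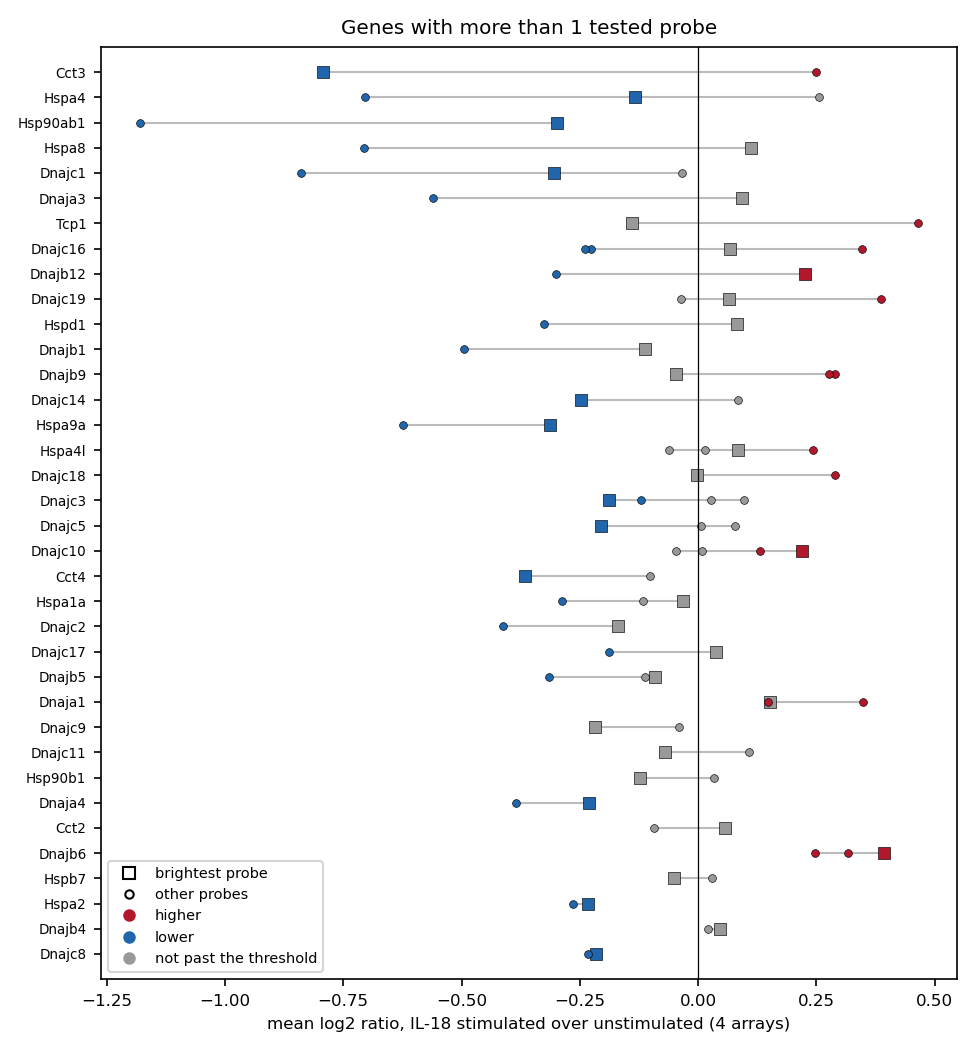
Mean log2 ratio of IL-18 stimulated over unstimulated cells for each tested probe of the 36 member genes with several tested probes, sorted by the range within the gene. Squares are brightest probes, circles the others, and colours show the call. The widest range is that of Cct3, from -0.79 to 0.25, and Dnajb6 has all 3 probes in red.

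The spread within an array could be read from probes printed on many spots. Dnajc11, a J protein of the mitochondrial inner membrane organising system, had 10 spots of 1 probe on each array, and the SD between them was 0.04, 0.03, 0.03 and 0.04 on replicates 1 to 4. The means of these spots were 0.04, -0.04, 0.00 and -0.28. Hspb7, with 9 or 10 spots of a dim probe, had SDs between spots from 0.07 to 0.12.

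Partners and regulators outside the rule were counted on a list of 51 genes, of which 50 were on the array and 47 tested. By brightest tested probe, 9 were higher and 16 lower (53.2%, against 47% over all genes), with a median log2 ratio of -0.07. Fkbp4 and Fkbp5, immunophilins that ride on HSP90, fell by 0.93 ± 0.47 and 0.77 ± 0.23, and Trap1, the mitochondrial HSP90, by 0.75 ± 0.24 (SD, n = 4; adjusted p = 0.00335, 5.8e-04 and 7.68e-04). On these probes all 3 were also below 0 with median centring, at -0.26, -0.27 and -0.11, but only Fkbp5 was still called (adjusted p = 0.0858, 0.00424 and 0.189). The dimmer probe of Fkbp4 fell by 0.32, and the dimmer probes of Fkbp5 by 0.26 and 0.22. With median centring these dimmer probes read 0.30, 0.21 and 0.16, all called higher. Dimmer probes of Cdc37 and Ppp5c fell by 1.11 ± 0.21 and 1.03 ± 0.28, while the brightest probes of these 2 genes read -0.27 and 0.08. The largest rise was that of Pfdn4, a subunit of prefoldin, which passes actin and tubulin to CCT, at 0.94 ± 0.17 (adjusted p = 1.9e-04). Pfdn5, another prefoldin subunit, rose on 3 probes, by 0.28, 0.25 and 0.35. Hsf1 itself rose by 0.32 ± 0.20 on its brightest probe (adjusted p = 0.0121), with 0.03, 0.36, 0.37 and 0.51 on replicates 1 to 4, and its other 2 probes were not called, at 0.11 and -0.05. The call on the brightest probe was lost without replicate 2 or without replicate 3 (adjusted p = 0.0560 in each fit).

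The arrays differed in their spread. Over the 116 tested member probes, the SD of the log2 ratios was 0.27, 0.26, 0.26 and 0.42 on replicates 1 to 4, and over all tested probes 0.28, 0.27, 0.26 and 0.38. Correlations between arrays over all tested probes, which are not independent of each other, ran from 0.743 (replicates 1 and 4) to 0.905 (replicates 2 and 3). Replicates 1 and 2 shared a slide and a scan, as did 3 and 4, and each slide held both channels of its replicates. With slide as a block, 22 of the 22 higher and 36 of the 38 lower member calls remained. The block leaves each mean ratio as it was, so no call could change direction. All 11 mast cell markers examined were well above background in both channels of all 4 arrays, with median log2 intensities of 15.8 in IL-18 stimulated and 15.5 in unstimulated cells. They did not move together. Fcer1a, Cma1, Cpa3, Mcpt1, Mcpt2 and Gata2 were called higher, Mcpt6 and Mitf lower, and Kit, Ms4a2 and Hdc were not called. The basophil marker Mcpt8 read 10.1 in stimulated and 9.75 in unstimulated cells, and the eosinophil genes Epx, Prg2 and Prg3 were never well above background. Siglecf, also on the eosinophil list, was well above background in both channels of all 4 arrays, at 6.82 in stimulated and 6.90 in unstimulated cells. Of 5 neutrophil markers, 2 were never well above background and 1 always was, S100a9, at 9.27 in stimulated and 9.46 in unstimulated cells. The macrophage markers Emr1, Cd68, Csf1r and Mrc1 were well above background. The brightest of them, Emr1, read 10.1 in stimulated and 9.88 in unstimulated cells and was called higher, Csf1r read 7.46 in stimulated and 7.66 in unstimulated cells and was called lower, and Cd68 and Mrc1 were not called. The part of other cells in the results was not tested.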

How the data were processed

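Each array measured IL-18 stimulated cells (Cy5) and their unstimulated controls (Cy3). The mean and background intensity of each spot, the flags and a background-subtracted, dye-normalized log10 ratio were made by the authors with Agilent Feature Extraction 9.1, per the file headers and the submitters' processing notes. A deposited table of log10 ratios differed from them by at most 0.00496 on any spot and had medians of 0. The log10 ratio was turned into log2 and used only as an alternative.

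The intensities as deposited were corrected here with limma 3.58.1 (R 4.3.3) by normexp with an offset of 50. Replicate 1 has a blemish with a local background of up to 32441.5, and fitting on all spots put the background of its Cy3 channel at -381, against 29.6 without spots flagged for a non-uniform background and 28.7 to 32.7 on the other arrays. Such spots were therefore kept out of the fit, a choice made after seeing the data, and 3 to 13 per array that were dimmer than their local background were removed. Loess within arrays, the mean over the spots of a probe, lmFit with an intercept and eBayes followed, two-sided, with Benjamini-Hochberg adjustment over 24104 tested probes. The ratio within an array is the paired difference. Levels are log2 intensities after loess and Aquantile scaling. The steps were tested on simulated data.

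Each array held 43379 gene spots, none (0) saturated, with 57.9% to 62.7% well above background in the stimulated and 49.9% to 54.0% in the unstimulated channel. The number of arrays limits the precision. Of the 137 member probes, 108 matched a RefSeq accession.

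The members and lists were chosen with earlier results of these data known. Named were the 8 largest rises and 8 largest falls, up to 3 called members of each role, probes of the best-known chaperones and of CCT, genes with opposite calls, Hsf1 and the 3 largest partner rises and falls by brightest tested probe. Dnaja2, Dnaja4, Dnajc3, Dnajc8, Dnajc10, Dnajc15, Hspb1, Hspc171, second probes and genes named because a count was small were chosen after their values were seen. 1 macrophage marker of the list is not reported here.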

Additional observations from a re-analysis of the deposited data

Results flagged for a closer look

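In 56 named probes, each array was compared with the other 3, and 6 probes had 1 array standing apart by Dixon's test, which flags about 5% of such groups by chance. Replicate 4 was that array in 5 of the 6. It read -1.58 for the dimmer probe of Hsp90ab1, where the others lay between -1.09 and -0.998, and -0.60 for the called probe of Dnajc2, where the others lay between -0.37 and -0.33. Among CCT subunits it read -0.78 for Cct4 (others -0.25 to -0.19), -0.74 for Cct7 (others -0.28 to -0.24) and -0.16 for the brighter probe of Cct2 (others 0.11 to 0.14). The sixth was Hspe1, which read 0.22 on replicate 1 and 0.41 to 0.44 on the others. Replicate 4 also had the widest spread of log2 ratios over all tested probes, 0.38 against 0.26 to 0.28. What sets replicate 4 apart was not tested.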

How the results depend on the processing

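Median centring changed the results most: 91 member probes were then higher and 6 lower (all tested probes 16748 and 1422), and 23 of the 60 member calls turned to the opposite call. Over all 60 member calls, 26 changed sign with it. Among the 56 named probes of the section above, values that reversed with median centring were Hspa8 dimmer probe 0.35, Hspa9a 0.12, Cct6a 0.18, Hspa2 0.16, Dnajc1 0.63, Hspa4 0.70, Hsp90ab1 0.85, Dnajb1 0.17 and 0.93, Dnajb10 0.18, Dnajc2 0.24, Dnajc7 0.47, Hspbap1 0.55, Cct2 dimmer probe 0.64, Cct4 0.61 and 0.14, Cct7 0.68, Cct8 0.90, Tcp1 0.77, Hspa1a 0.45 and 0.32, Hsp90b1 1.03, Hspa5 1.11, Hspd1 dimmer probe 0.41 and Dnajb12 0.13. Of these, Cct2, Cct8, Tcp1, Hspa1a, Hsp90b1, Hspa5, Hspbap1, the dimmer Cct4 probe (0.14) and the brighter Dnajb1 probe (0.93) had not been called with loess. With the software's log ratio 3 uncalled values reversed: Cct2 -0.11, Hspa8 brighter probe -0.088 and Hsp90b1 dimmer probe -0.023. The brightest Hspa1a probe, uncalled, read 0.054 with the background fitted on all spots. Leaving out 1 replicate put it between -0.26 (called, without replicate 4) and 0.12, and the dimmer Hsp90b1 probe between -0.0057 and 0.084. The background fit on all spots, added after seeing the data, gave 20 higher and 26 lower member probes and 4358 and 3870 over the array.

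Leaving out 1 replicate at a time gave 16 to 29 higher and 28 to 41 lower member probes, and 3527 to 6208 higher and 4107 to 5983 lower over the array, with the fewest higher without replicate 2. No member call turned to the opposite direction in these fits, which the shared sign of every called probe on all 4 arrays fixed in advance. An offset of 10, scaling between arrays, either filter on dim probes, trended and robust eBayes and the slide block moved none of the 4 counts by over 1.5 times. Within each slide no called named probe changed sign. That could not come out otherwise, since all 60 called member probes had the same sign on all 4 arrays. No paired analysis with replicate blocks was possible beyond the ratio itself, because each array already holds the pair. Dim probes have ratios pulled toward 0 by the offset, and 21 member probes were too dim to test.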
